A study of Mus musculus with 6 samples.

Results

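The genes described here encode the surfactant proteins and the lamellar body machinery of the lung: Sftpa1, Sftpb, Sftpc, Sftpd, Abca3, Lamp3, Napsa, Slc34a2, Lgi3 and Etv5. They were chosen by name, and the probes whose accession matched one of these 10 symbols in RefSeq were taken, which gave 17 of the 22951 probes with a symbol. All 10 genes were among the 12968 genes tested. Lung total RNA came from C57BL/6 mice of 3 genotypes, with 2 single-colour arrays each: hCD2-T-bet tg/tg, hCD2-T-bet tg/wt and WT. The transgene places T-bet, the transcription factor encoded by Tbx21, under human CD2 regulatory elements, which act in T cells. Which cells of the lung expressed the transgene was not measured here. The series was made to profile lungs with pulmonary alveolar proteinosis under T-bet overexpression in T cells. The labels used here give neither age nor sex, and whether the 2 arrays of a genotype stand for 2 animals is not stated there. Each p-value therefore reflects array-to-array spread alone, and that spread could be purely technical.

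Surfactant is made by alveolar type 2 cells, which store its lipids and the small hydrophobic proteins B and C in lamellar bodies and release them into the air space, where they lower surface tension. Surfactant proteins A and D are collectins, secreted lectins that bind microbes and help alveolar macrophages take up material. In alveolar proteinosis surfactant fills the air spaces, classically because macrophages that lack a signal from the cytokine GM-CSF do not clear it.

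Levels are log2 of the processed signal minus the 75th percentile of the same array, so a level of 0 is that percentile, and levels of different probes cannot be set against each other. The 75th percentiles were 794 and 1003 intensity units on the tg/tg arrays, 1204 and 930 on the tg/wt arrays and 947 and 964 on the WT arrays. Tbx21 followed the labels, at 3.25 and 3.26 in tg/tg, 1.30 and 1.34 in tg/wt and -0.70 and -0.71 in WT. The tg/tg and WT arrays shared slide 1 and the tg/wt arrays lay on slide 2, and the recorded scan dates split the arrays in the same way. In the 2 comparisons with tg/wt the slide, the scan date and the genotype therefore cannot be told apart. In whole lung, fewer cells of a type and less RNA per cell cannot be told apart either. A gene was called where the adjusted p of limma, Benjamini-Hochberg over the 12968 genes, was under 0.05.

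In tg/tg lungs the surfactant and lamellar body genes were split between higher and lower. Sftpd was 1.88-fold higher than in WT, Napsa 1.48-fold higher and Sftpa1 1.17-fold higher, while Lgi3 was 1.92-fold lower, Slc34a2 1.13-fold lower and Lamp3 1.11-fold lower. Sftpb, Abca3 and Etv5 were not called, and Sftpc was saturated and gives no fold. The signs given for Sftpa1, Slc34a2 and Lamp3 are those of the brightest probe of each, and another probe of each had the opposite sign. Thus 6 of 9 measurable genes were called, against 74.7% of all genes in the same comparison. By direction, 3 were higher, against 33.8% of all genes, and 3 lower, against 40.8%. Read by every unsaturated probe, 10 of 16 were called, 5 higher and 5 lower, against 72.5% of all 18212 probes. The median difference over the 9 was -0.10 and the median size of a difference 0.18, where all tested genes had -0.05 and 0.42. Of all tested genes 25% differed by more than Lgi3, the member with the largest difference. The arrays of tg/tg and WT did not overlap for 8 of the 9 members, where 87.9% of all genes did not overlap.

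**Figure D1:**
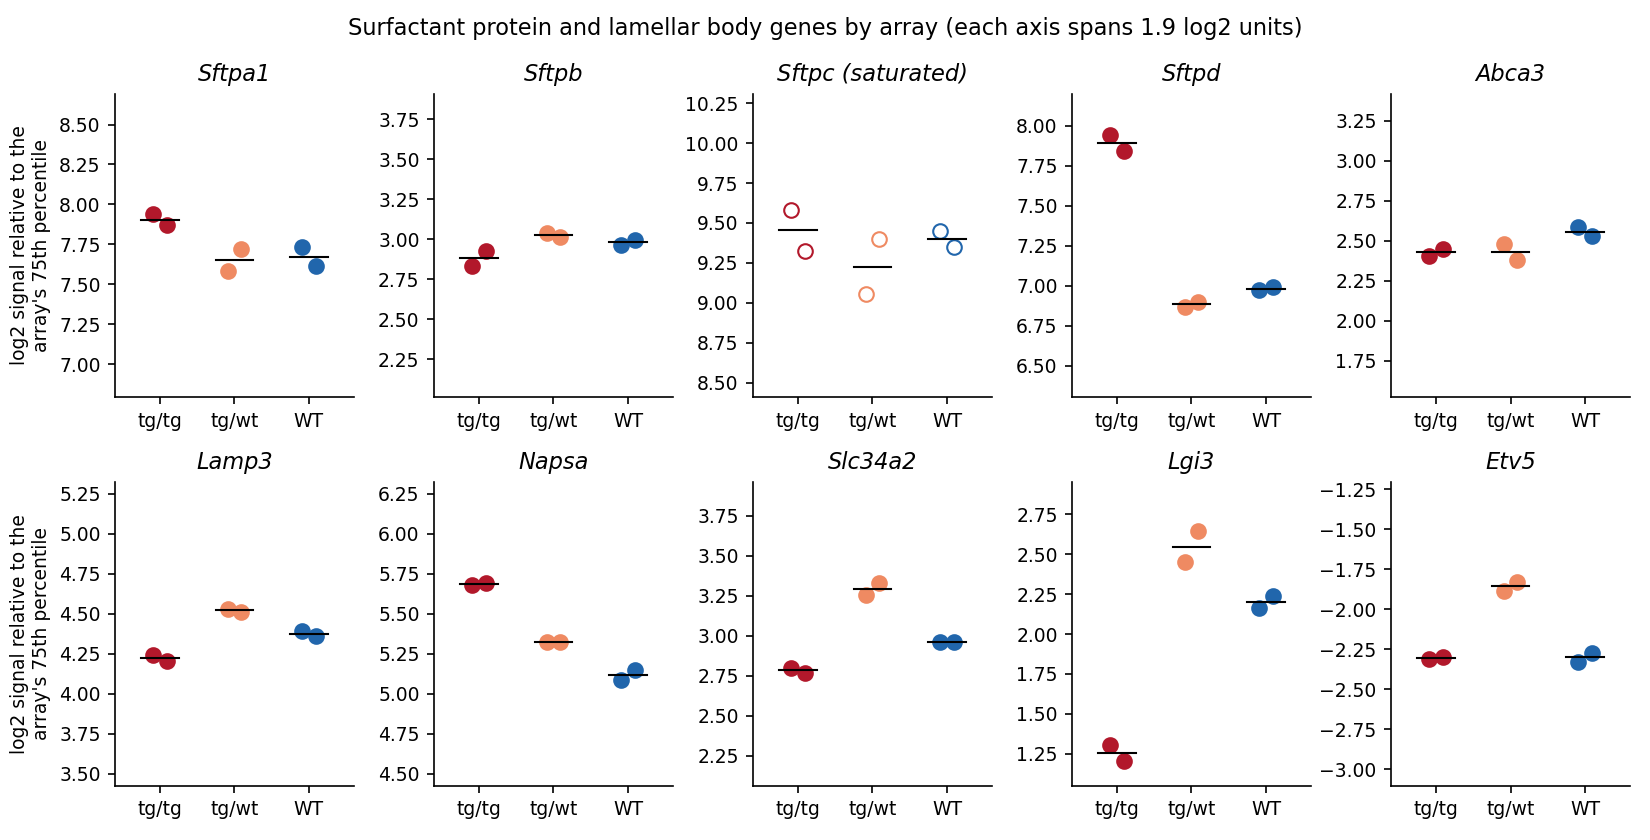
Level of each of the 10 genes on each array, as log2 signal relative to the array's 75th percentile, with tg/tg, tg/wt and WT from left to right. Each point is 1 array and each bar the mean of 2 arrays, and open symbols mark saturated spots. The tg/tg arrays stand above the others for Sftpd (7.94 and 7.84) and Napsa (5.68 and 5.69) and below them for Lgi3 (1.31 and 1.21).

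Sftpd encodes surfactant protein D, the collectin that binds sugars on microbes and acts in surfactant turnover. Its level was 7.94 and 7.84 in tg/tg, 6.87 and 6.90 in tg/wt and 6.97 and 6.99 in WT. Both tg/tg arrays lay above the other 4, and tg/wt lay just under WT without overlapping it. The log2 difference of tg/tg from WT was 0.91 (SE 0.0471, limma adjusted p = 5.35e-05), and with only the 4 arrays of slide 1 it had an adjusted p = 0.000438. The spot stayed below saturation, at 30.6% and 36.8% of the saturation value in tg/tg, 21.9% and 17.3% in tg/wt and 18.9% and 19.7% in WT. The difference of tg/wt from WT was -0.10 (SE 0.0471, limma adjusted p = 0.187) and was not called.

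Sftpa1 encodes surfactant protein A, the more abundant collectin of the air space, and its probes went in opposite directions. Its brightest probe (A_52_P24439) read 7.94 and 7.87 in tg/tg, 7.59 and 7.72 in tg/wt and 7.73 and 7.61 in WT. The tg/tg arrays were above both other genotypes, which overlapped each other. The difference of tg/tg from WT was 0.23 (SE 0.0702, limma adjusted p = 0.0331). The second probe (A_51_P129491) read 3.50 and 3.53 in tg/tg, 3.71 and 3.69 in tg/wt and 3.67 and 3.72 in WT, with the tg/tg arrays lowest. Tested as a probe of its own it was lower in tg/tg than in WT by -0.18 (limma adjusted p = 0.01 over 18212 probes). The direction of Sftpa1 therefore depends on the probe, and with the mean of both probes it was 0.02 (limma adjusted p = 0.608). The call for the brightest probe ended in 8 of 19 settings, among them quantile normalization, at 0.09 (limma adjusted p = 0.0955). The 8 include the fits without tg/tg replicate 1, tg/tg replicate 2 or WT replicate 2, with differences of 0.17 to 0.26 and adjusted p between 0.0656 and 0.14. Its difference of tg/tg from tg/wt was 0.25 (limma adjusted p = 0.0257), and it was -0.03 with quantile normalization and lost its call without tg/tg replicate 1, tg/tg replicate 2 or tg/wt replicate 1.

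Sftpb encodes surfactant protein B, a saposin-like protein that packs lipid into the lamellar body and is needed for life after birth. It read 2.83 and 2.93 in tg/tg, 3.04 and 3.01 in tg/wt and 2.96 and 3.0 in WT. The tg/tg arrays were lowest, by little. The difference of tg/tg from WT was -0.10, with a 95% interval of -0.22 to 0.02 (limma adjusted p = 0.0997), and that from tg/wt was -0.14 (SE 0.0446, limma adjusted p = 0.0345). Without tg/tg replicate 2 the difference from WT was -0.15 and was called (limma adjusted p = 0.0398). The call against tg/wt ended in 9 of 18 settings, and with any array left out except tg/tg replicate 2, with differences of -0.16 to -0.10 and adjusted p between 0.0664 and 0.126.

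Sftpc encodes surfactant protein C, the small hydrophobic protein that is the classical mark of type 2 cells. Its only probe was saturated on all 6 arrays, and the median pixel signal of its spot was at 97.8% and 100% of the saturation value in tg/tg and at 100% on the other 4 arrays. Its processed levels of 9.58 and 9.32 in tg/tg, 9.06 and 9.40 in tg/wt and 9.45 and 9.35 in WT are therefore lower bounds and carry no order. The other 16 probes of these genes were saturated on no array.

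The promoters of Sftpa1 and Sftpb are shown because both hold the motif of NKX2-1, the lung transcription factor known to drive surfactant genes. The sequences are the 250 bases before the annotated start, 5′ to 3′, from RefSeq on GRCm38.p6, at chr14:41131538-41131787 on the plus strand for Sftpa1 and chr6:72304360-72304609 on the plus strand for Sftpb. Capitals mark CTCAAG, searched on both strands.
Sftpa1: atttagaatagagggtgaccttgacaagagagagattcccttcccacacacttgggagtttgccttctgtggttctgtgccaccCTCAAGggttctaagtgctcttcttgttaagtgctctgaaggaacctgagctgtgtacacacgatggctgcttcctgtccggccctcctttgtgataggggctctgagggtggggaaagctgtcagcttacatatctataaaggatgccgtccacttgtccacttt
Sftpb: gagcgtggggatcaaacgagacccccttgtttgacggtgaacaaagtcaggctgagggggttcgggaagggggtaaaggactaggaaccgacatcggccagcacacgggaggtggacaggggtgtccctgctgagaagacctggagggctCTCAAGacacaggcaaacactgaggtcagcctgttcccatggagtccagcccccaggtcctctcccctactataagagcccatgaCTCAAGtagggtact
Sftpa1 has 1 match, which begins 166 bases before the start, and Sftpb has 2, which begin 100 and 15 bases before it. CTCAAG was found in 13.3% of 32851 promoter windows of the same length. The motif is a match of letters and was not tested as a binding site.

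Napsa encodes napsin A, an aspartic protease of lamellar bodies that cuts the precursors of surfactant proteins B and C. It read 5.68 and 5.69 in tg/tg, 5.33 and 5.32 in tg/wt and 5.08 and 5.15 in WT. The 3 genotypes did not overlap and were ordered by the number of transgene copies in the genotype label. Against WT the difference was 0.57 in tg/tg (SE 0.0367, limma adjusted p = 0.000117) and 0.21 in tg/wt (SE 0.0367, limma adjusted p = 0.0182). Between tg/tg and tg/wt it was 0.36 (limma adjusted p = 0.000661). The call for tg/wt against WT ended when either tg/wt array or either WT array was left out, with adjusted p between 0.0568 and 0.1, while that for tg/tg against WT held in all 19 settings.

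Abca3 encodes the transporter that carries phospholipid into lamellar bodies. Its brightest probe (A_51_P443082) read 2.41 and 2.45 in tg/tg, 2.48 and 2.38 in tg/wt and 2.58 and 2.53 in WT. The WT arrays were highest and the transgenic genotypes overlapped. The difference of tg/tg from WT was -0.13, with a 95% interval of -0.26 to 0.00066 (limma adjusted p = 0.0663). The second probe (A_52_P91265) read 1.36 and 1.40 in tg/tg, 1.78 and 1.86 in tg/wt and 1.65 and 1.62 in WT, and it was lower in tg/tg than in WT by -0.25 (limma adjusted p = 0.00531) and higher in tg/wt than in WT by 0.19 (limma adjusted p = 0.0447). The third (A_51_P427317) gave -0.19 for tg/tg against WT (limma adjusted p = 0.0574). The difference of tg/tg from WT was negative for all 3 probes, and the mean of the probes was called, at -0.19 (limma adjusted p = 0.0122).

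Lamp3 encodes a membrane protein of lamellar bodies that mature dendritic cells also make. Its brightest probe (A_52_P142807) read 4.24 and 4.21 in tg/tg, 4.53 and 4.51 in tg/wt and 4.39 and 4.36 in WT. The 3 genotypes did not overlap, with WT between the other 2. The difference from WT was -0.15 in tg/tg (SE 0.0346, limma adjusted p = 0.0124) and 0.15 in tg/wt (SE 0.0346, limma adjusted p = 0.0374). On the 4 tg/wt and WT arrays this signal came from a second, dimmer scan scaled up, and on the 2 tg/tg arrays it did not, so the scan moved with the tg/tg genotype and its part in the result was not tested. The dimmer scan was used on all 6 arrays for the brightest probes of Sftpa1, Sftpc, Sftpd and Napsa. A dimmer probe (A_52_P104593) read -1.68 and -1.55 in tg/tg, -1.80 and -1.78 in tg/wt and -1.84 and -1.83 in WT, and it was higher in tg/tg than in WT by 0.22 (limma adjusted p = 0.0166). The third probe (A_51_P239376) was not called, at 0.08 (limma adjusted p = 0.494). The direction of Lamp3 in tg/tg thus depends on the probe, and the mean of the 3 was 0.05 (limma adjusted p = 0.41). Normexp background correction on the median signal turned the brightest probe too, to 0.13 (limma adjusted p = 0.569). The call for tg/tg against WT ended without WT replicate 1, at -0.14 (limma adjusted p = 0.0775), and the call for tg/wt against WT ended in 10 of 18 settings, among them without either tg/wt or either WT array. Of 8 mature dendritic cell markers 5 were higher in tg/tg than in WT and 2 were lower, beside 33.8% and 40.8% of all genes. Those lower were Ccl17 (13.4-fold) and Ccr7 (3.05-fold). The summed level of the 8 markers was 42.4 and 43.2 in tg/tg, against 19.4 on each WT array. In tg/tg this sum gives most weight to Ccl19, which was 4.71-fold higher than in WT, and it does not show the falls. The sum moved with the Lamp3 probes in part, and the part of these cells was not tested.

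Slc34a2 encodes the sodium phosphate cotransporter of type 2 cells, which takes up phosphate freed from surfactant lipid. Its brightest probe (A_51_P221256) read 2.80 and 2.77 in tg/tg, 3.26 and 3.33 in tg/wt and 2.96 on each WT array. The tg/wt arrays were highest and the tg/tg arrays lowest. The difference from WT was -0.18 in tg/tg (SE 0.0408, limma adjusted p = 0.013) and 0.33 in tg/wt (SE 0.0408, limma adjusted p = 0.00715). The second probe (A_52_P255099) read 1.43 and 1.54 in tg/tg, 1.38 and 1.49 in tg/wt and 1.19 and 1.15 in WT, and it was higher than WT in tg/tg by 0.31 (limma adjusted p = 0.00796) and in tg/wt by 0.26 (limma adjusted p = 0.0447). Both probes were thus higher in tg/wt than in WT, and they had opposite signs in tg/tg against WT, where the mean of the probes was 0.07 (limma adjusted p = 0.228) and normexp on the median signal gave 0.10 (limma adjusted p = 0.67). The call for tg/tg against WT ended without tg/tg replicate 2, WT replicate 1 or WT replicate 2, with adjusted p between 0.054 and 0.0629.

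The promoters of Lamp3 and Slc34a2 are shown because each holds another motif searched, and both genes have probes that disagree. Capitals mark TTCNNNGAA, the gamma-activated site bound by STAT factors, in Lamp3, at chr16:19706366-19706615 on the minus strand. In Slc34a2, at chr5:53049103-53049352 on the plus strand, they mark TTGCNNAA, which C/EBP factors bind. Both are the 250 bases before the start, 5′ to 3′, from RefSeq on GRCm38.p6, and each motif was searched on both strands.
Lamp3: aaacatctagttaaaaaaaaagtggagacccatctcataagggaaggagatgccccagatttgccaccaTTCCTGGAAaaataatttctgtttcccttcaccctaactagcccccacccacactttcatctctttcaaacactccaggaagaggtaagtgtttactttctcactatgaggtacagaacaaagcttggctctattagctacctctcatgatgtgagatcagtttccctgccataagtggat
Slc34a2: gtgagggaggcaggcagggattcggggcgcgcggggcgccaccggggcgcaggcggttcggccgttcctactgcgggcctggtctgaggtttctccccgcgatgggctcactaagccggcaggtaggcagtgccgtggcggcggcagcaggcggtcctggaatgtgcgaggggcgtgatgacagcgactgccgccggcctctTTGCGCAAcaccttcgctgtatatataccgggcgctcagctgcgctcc
The Lamp3 match begins 181 bases before the start and the Slc34a2 match 48 bases before it. TTCNNNGAA was found in 7.02% and TTGCNNAA in 9.56% of the 32851 windows. GGTGTGA, a T-box motif found in 3.33% of windows, was in none of the 7 promoters of the 6 members held in the RefSeq table, which also include Abca3 and Etv5.

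Lgi3 encodes a secreted leucine-rich repeat protein that is used as a type 2 cell marker and lies beside Sftpc in the mouse genome. It read 1.31 and 1.21 in tg/tg, 2.45 and 2.64 in tg/wt and 2.16 and 2.24 in WT. The genotypes did not overlap, with tg/tg lowest and tg/wt highest. The difference of tg/tg was -0.94 from WT (SE 0.0806, limma adjusted p = 0.000326, and adjusted p = 0.000511 within slide 1) and -1.29 from tg/wt (SE 0.0806, limma adjusted p = 0.000112). The rise in tg/wt over WT was 0.35 (SE 0.0806, limma adjusted p = 0.0369). That last call ended in 9 of 18 settings. It ended with any array left out except tg/wt replicate 1, with differences of 0.25 to 0.38 and adjusted p between 0.0557 and 0.153. Among the neighbours of Lgi3 and Sftpc in the RefSeq gene order, Bmp1 was higher in tg/tg than in WT by 0.61 (limma adjusted p = 0.000122) and Reep4 by 0.30 (limma adjusted p = 0.00706).

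Etv5 encodes an ETS transcription factor of the PEA3 group that maintains type 2 cells in mice. Its brightest probe (A_52_P631015) read -2.31 and -2.30 in tg/tg, -1.88 and -1.83 in tg/wt and -2.33 and -2.27 in WT. The tg/wt arrays stood above the other genotypes, which overlapped. The difference from WT was 0.44 in tg/wt (SE 0.0395, limma adjusted p = 0.00313) and -0.0056 in tg/tg, with a 95% interval of -0.11 to 0.10. With normexp on the median signal the difference from WT was -0.60 in tg/tg (limma adjusted p = 0.132) and -0.27 in tg/wt (limma adjusted p = 0.492), neither called. With outlying local backgrounds replaced it was 0.01 in tg/tg (limma adjusted p = 0.798) and 0.35 in tg/wt (limma adjusted p = 0.00591). The second probe (A_51_P323579) gave 0.11 in tg/wt (limma adjusted p = 0.394) and -0.22 in tg/tg (limma adjusted p = 0.0674), neither of them called. The other PEA3 factors differed from WT in tg/tg, with Etv4 6.43-fold higher (limma adjusted p = 8.9e-05) and Etv1 1.64-fold lower (limma adjusted p = 4.44e-05).

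**Figure D2:**
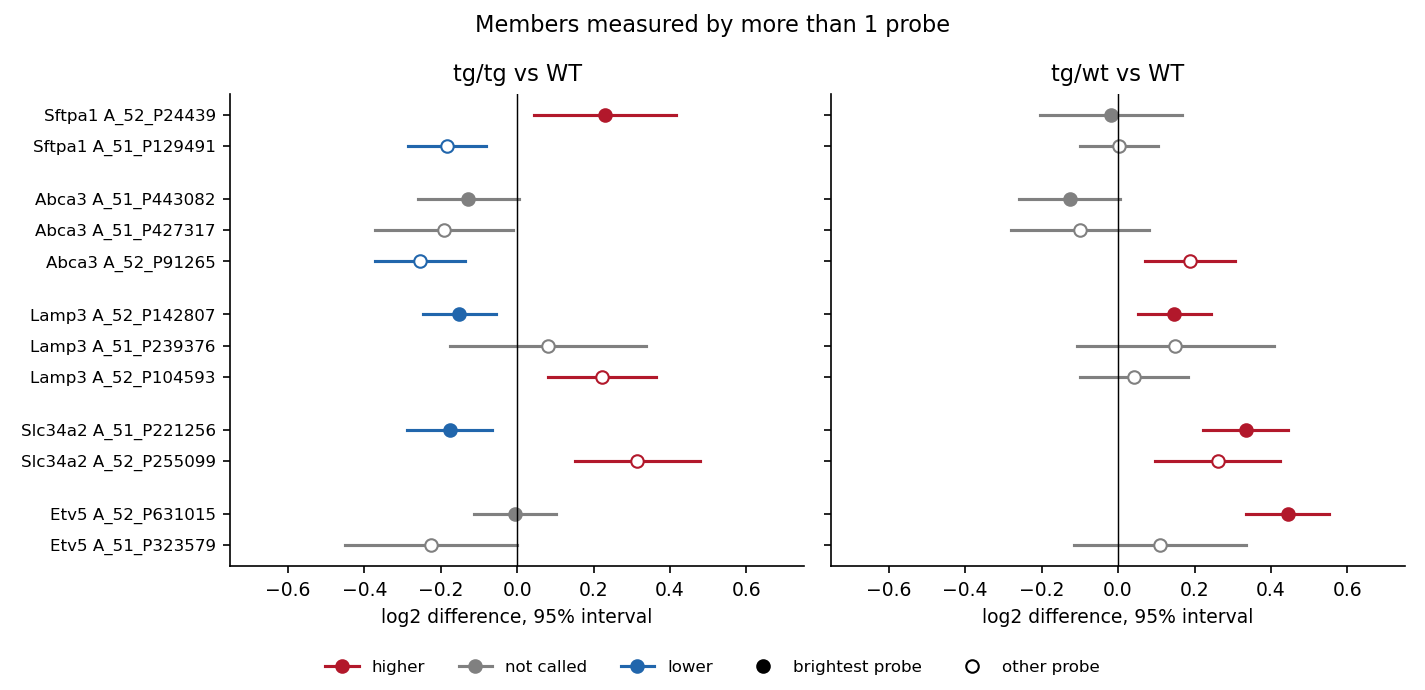
Log2 difference from WT of every probe of the 5 genes measured by more than 1 probe, tg/tg on the left and tg/wt on the right, with lines for the 95% interval from the fit over all 18212 probes. Filled points are the brightest probe of a gene. In tg/tg the probes of Sftpa1 (0.23 and -0.18), Slc34a2 (-0.18 and 0.31) and Lamp3 (-0.15 and 0.22) lie on both sides of 0, and the Abca3 probes lie below it.

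In tg/wt lungs 5 of the 9 genes were called against WT, all of them higher, and 27.9% of all genes were called in that comparison, 13.4% higher and 14.6% lower. They were Etv5 (1.36-fold), Lgi3 (1.27-fold), Slc34a2 (1.26-fold), Napsa (1.16-fold) and Lamp3 (1.11-fold). The median difference over the 9 was 0.15, against -0.005 over all genes. The arrays did not overlap for 8 of the 9 members, where 72.4% of all genes did not. Of the 16 unsaturated probes 7 were called, all higher, against 23.2% of all probes. Leaving out each array in turn gave 2 to 4 called members, with 2 called without tg/wt replicate 2, WT replicate 1 or WT replicate 2. This comparison shares its WT arrays with the one for tg/tg, so the values of the 2 are not independent.

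Between tg/tg and tg/wt, 8 of the 9 genes were called, against 74.2% of all genes, with 3 higher against 34% and 5 lower against 40.2%. The arrays did not overlap for 8 of the 9, where 87.5% of all genes did not, and 12 of 16 probes were called, against 71.8% of all probes. Sftpd (1.01), Napsa (0.36) and Sftpa1 (0.25) were higher in tg/tg on the log2 scale, each by its brightest probe. Lgi3 (-1.29), Slc34a2 (-0.51), Etv5 (-0.45), Lamp3 (-0.30) and Sftpb (-0.14) were lower. The brightest Abca3 probe was not called, with a difference of -0.00066 and a 95% interval of -0.13 to 0.13. Another Abca3 probe (A_52_P91265) was lower in tg/tg by -0.44 (limma adjusted p = 0.000727), and the mean of the Abca3 probes was -0.18 (limma adjusted p = 0.0157). The second Sftpa1 probe (A_51_P129491) was lower in tg/tg by -0.19 (limma adjusted p = 0.00971). A dimmer Lamp3 probe (A_52_P104593) was higher by 0.18 (limma adjusted p = 0.034), and the second Slc34a2 probe (A_52_P255099) was not called, at 0.05 (limma adjusted p = 0.473).

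**Figure D3:**
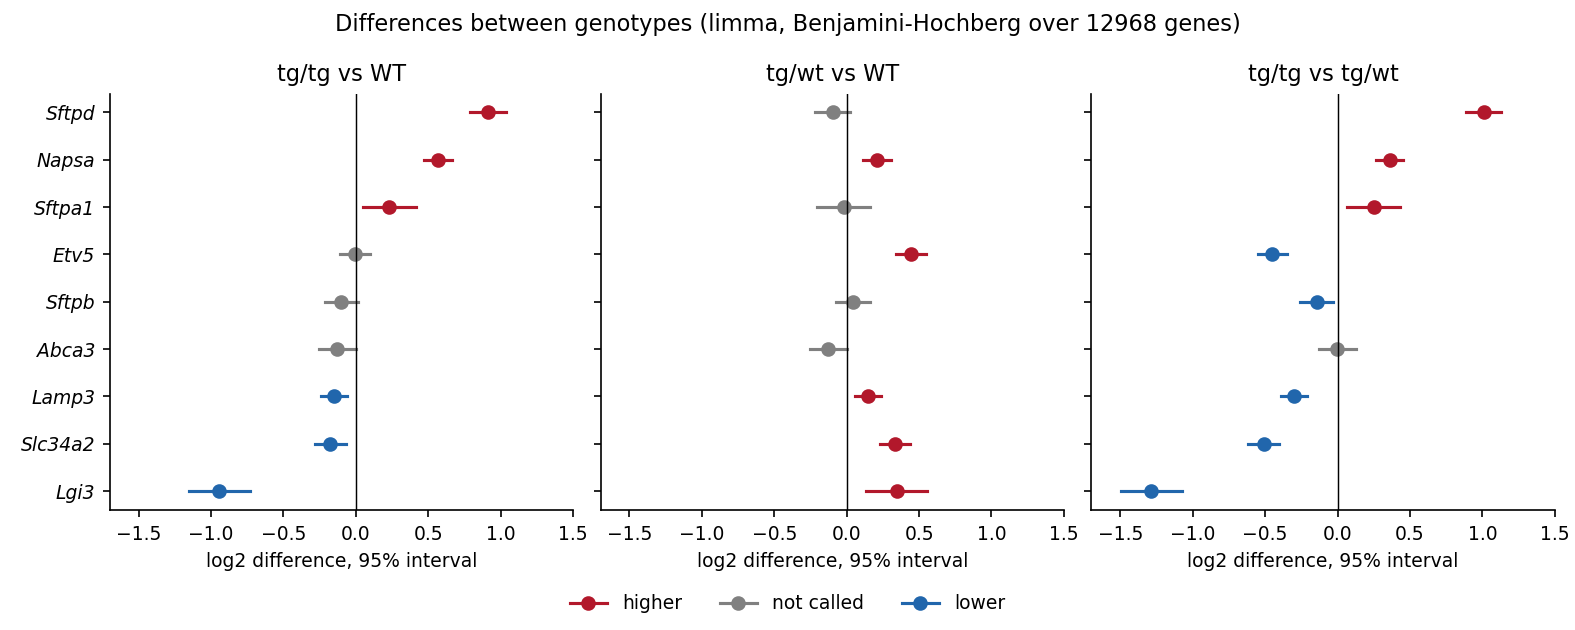
Log2 difference between genotypes for the 9 genes measured below saturation, with lines for the 95% interval, in tg/tg against WT, tg/wt against WT and tg/tg against tg/wt. Colours give the limma call. Sftpd (0.91) and Lgi3 (-0.94) lie farthest from 0 in tg/tg against WT, and in tg/wt against WT the called genes all lie to the right of 0.

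Transcripts for proteins that process surfactant and build, fuse and release lamellar bodies went both ways in tg/tg. Of 22 tested genes of this list, none of them a member, 15 were higher than in WT and 5 lower, where 33.8% of all genes were higher and 40.8% lower. The median difference was 0.31, against -0.05 over all genes, and no list was tested as a set. Ctsh, a cathepsin that cuts the precursors of proteins B and C, was 2.78-fold higher (limma adjusted p = 2.21e-05), Lyst, a factor of lysosome-related organelles, 2.19-fold higher (limma adjusted p = 0.000322) and Dmbt1, a glycoprotein that binds surfactant protein D, 3.55-fold higher (limma adjusted p = 0.00332), although only 1 WT array had it well above background. Atp6v0d2, a subunit of the proton pump, was 3.15-fold higher (limma adjusted p = 0.000119), and macrophages make it too. All 11 monocyte and interstitial macrophage markers were also higher in tg/tg than in WT. Which cells the higher values of this list came from was not tested. The SNARE gene Vamp2 was 1.81-fold lower (limma adjusted p = 1.85e-05), the secretory GTPase gene Rab3d 1.38-fold lower (limma adjusted p = 0.000379) and the ubiquitin ligase gene Nedd4 1.31-fold lower (limma adjusted p = 0.0273). In tg/wt against WT 3 of the 22 were higher and 1 was lower, where 13.4% of all genes were higher and 14.6% lower.

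Genes of phosphatidylcholine and fatty acid synthesis, which supply surfactant lipid, also went both ways. Of 23, 6 were higher and 12 lower in tg/tg than in WT, beside 33.8% and 40.8% of all genes, with a median difference of -0.27 against -0.05 over all genes. Acoxl, an acyl-CoA oxidase-like gene, was 9.24-fold lower (limma adjusted p = 2.21e-06), Lpin1, a phosphatidate phosphatase, 2.16-fold lower (limma adjusted p = 1.17e-05) and Insig1, an endoplasmic reticulum regulator of sterol and lipid synthesis, 1.71-fold lower (limma adjusted p = 0.000301). The fatty acid binding protein gene Fabp5 was 2.18-fold higher (limma adjusted p = 3.44e-05), the desaturase gene Scd1 1.84-fold higher (limma adjusted p = 0.000914) and the elongase gene Elovl6 1.62-fold higher (limma adjusted p = 8.54e-05). In tg/wt against WT 1 of the 23 was higher and 6 were lower, beside 13.4% and 14.6% of all genes.

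Of 23 regulators of surfactant genes, 4 were higher and 13 lower in tg/tg than in WT, beside 33.8% and 40.8% of all genes, with a median difference of -0.24 against -0.05 over all genes. Nkx2-1 itself was 1.13-fold lower in tg/tg than in WT (limma adjusted p = 0.0157), and was named after its value was seen, because its motif is shown above. Foxa1, a forkhead factor of lung epithelium, was 2.09-fold lower (limma adjusted p = 1.13e-05), Nfib, a factor of lung maturation, 1.99-fold lower (limma adjusted p = 5.79e-05) and Errfi1, an inhibitor of EGF receptor signalling, 1.78-fold lower (limma adjusted p = 2.78e-05). Thrb, the thyroid hormone receptor beta gene, was at least 1.22-fold lower (limma adjusted p = 0.0053), being not well above background on either tg/tg array and on 1 WT array. Id2, an inhibitor of helix-loop-helix factors, was 3.31-fold higher (limma adjusted p = 4.53e-06), and Cebpb 1.33-fold higher (limma adjusted p = 0.000377).

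Clearance itself was not measured. Of 14 genes listed for surfactant clearance and the GM-CSF route, 10 had a higher RNA level in tg/tg than in WT and 2 a lower one. This stood beside 33.8% and 40.8% of all genes, and the median difference of the 14 was 1.21. Csf2rb2, which in mice encodes the beta chain used by the interleukin-3 receptor, was 13.0-fold higher (limma adjusted p = 6.38e-07), the myeloid transcription factor gene Spi1 5.77-fold (limma adjusted p = 4.45e-05) and the scavenger receptor gene Marco 4.78-fold higher (limma adjusted p = 1.26e-06). Csf2, the gene of GM-CSF, had a mean level of -0.74 in tg/tg and -2.33 in WT. Its receptor gene Csf2ra had 5.22 in tg/tg and 3.30 in WT, and both genes were named after their values were seen. Pparg, a nuclear receptor of alveolar macrophages, was 1.94-fold lower (limma adjusted p = 4.45e-05) and Stat5b 1.23-fold lower (limma adjusted p = 0.00618). In the same comparison all 11 monocyte and interstitial macrophage markers were higher. Of 14 alveolar macrophage markers 10 were lower and 4 higher. The largest falls were in Fabp1 (at least 90.1-fold, not well above background on either tg/tg array), Cidec (86.3-fold), Krt79 (29.7-fold) and Ear1 (10.04-fold). Those higher were Marco (4.78-fold), Atp6v0d2 (3.15-fold), Itgax (2.65-fold) and Mrc1 (2.20-fold). The alveolar macrophage markers summed to 111 and 112 in tg/tg, 126 and 129 in tg/wt and 141 and 139 in WT. This sum gives most weight to Chil3, the brightest, which was 1.54-fold lower, and does not show the larger falls. The part of both marker lists in the clearance values was not tested.

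Relatives of the members went both ways in tg/tg against WT, where 33.8% of all genes were higher and 40.8% lower. The 4 other tested collectins were all lower in tg/tg than in WT, with Colec12 1.56-fold (limma adjusted p = 0.000474), Colec11 1.28-fold (limma adjusted p = 0.00239) and Mbl1 1.21-fold lower (limma adjusted p = 0.0265), and Colec10 at least 1.16-fold lower (limma adjusted p = 6.41e-05), being not well above background on both tg/tg arrays. The 6 other saposin-like genes were all higher, led by Aoah, an acyloxyacyl hydrolase, at 34.4-fold (limma adjusted p = 6.38e-07) and Psap, the precursor of the saposins, at 2.65-fold (limma adjusted p = 4.03e-05). Among aspartic proteases Ctsd was 3.15-fold higher (limma adjusted p = 7.11e-06) and Bace1 1.64-fold lower (limma adjusted p = 8.84e-05). Among the A-class transporters 2 of 10 other genes were higher and 6 lower. The phosphate transporter gene Slc20a1 was 2.44-fold higher (limma adjusted p = 2.21e-05), and Lgi4 of the LGI family was 1.35-fold lower (limma adjusted p = 0.000407).

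Other markers of the cells that make these proteins moved unevenly. The counts in this paragraph compare tg/tg with WT, where 33.8% of all genes were higher and 40.8% lower. Of 10 further type 2 cell markers 5 were higher and 2 lower in tg/tg than in WT. Their summed linear level was 448 and 428 in tg/tg, 264 and 271 in tg/wt and 277 and 267 in WT. The brightest of them was Ctsh, at a mean level of 8.16 in tg/tg and 6.69 in WT. The sum therefore mostly follows Ctsh and does not show a rise of the 10 markers as a set. Ctsh (2.78-fold), Fabp5 (2.18-fold), Chil1 (2.03-fold) and Cxcl15 (1.89-fold) were higher, while the complement gene Hc was 4.70-fold and Ppp1r14c 2.0-fold lower. The 15 general epithelial markers split into 8 higher and 3 lower, with sums of 240 and 239 in tg/tg, 173 and 177 in tg/wt and 207 and 197 in WT. Of 11 type 1 cell markers 10 were lower, and all 12 club and ciliated cell markers were lower, with sums of 499 and 451 in tg/tg, 914 and 1071 in tg/wt and 1189 and 1170 in WT. Monocyte and interstitial macrophage markers summed to 540 and 512 in tg/tg, 115 and 119 in tg/wt and 107 and 103 in WT. All 11 T cell markers were higher, with sums of 53.8 and 54.3 in tg/tg, 11.9 on each tg/wt array and 6.70 and 6.39 in WT. All 10 endothelial markers were lower, with sums of 176 and 180 in tg/tg, 382 and 385 in tg/wt and 412 and 411 in WT. A sum is dominated by its brightest markers, and the part of cell makeup in the differences of the surfactant genes was not tested.

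**Figure D4:**
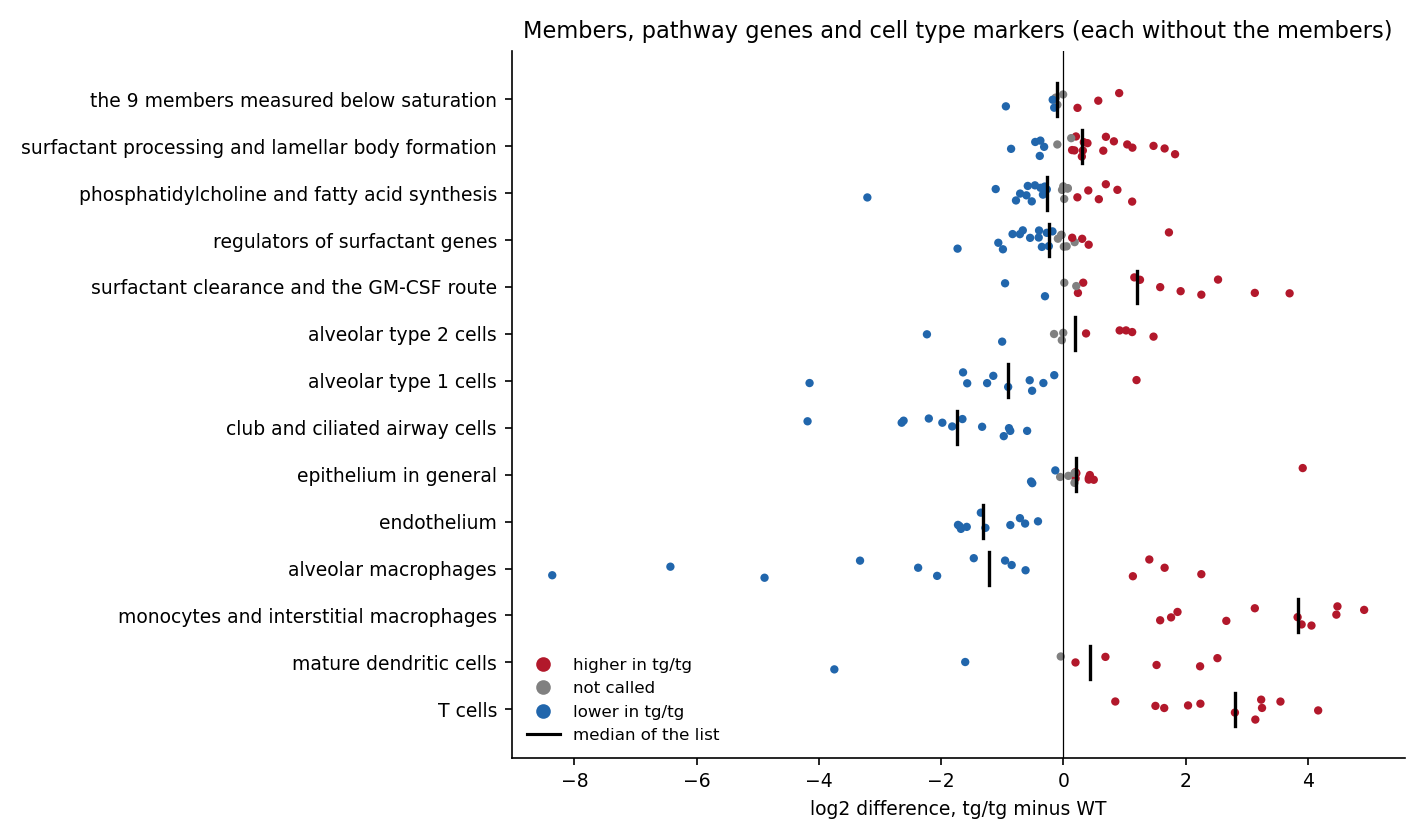
Log2 difference of tg/tg from WT for the 9 members, for the other genes of 4 pathways and for markers of 9 cell types, with 1 point per gene as measured, colours for the limma call and a bar at the median of each list. The 9 members lie between -0.94 and 0.91, the 12 club and ciliated markers lie below 0 and the 11 monocyte and interstitial macrophage markers above it.

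The genes whose pattern over the 6 arrays was nearest to Sftpd, by the root mean square difference after centring each gene on its mean, were Osmr (0.0214), Dtx4 (0.027) and Pfkl (0.0341). Those nearest to Lgi3 were Tfap4 (0.0242), Per2 (0.0565) and Ptprm (0.0594). Within a root mean square difference of 0.1 there were 159 genes around Sftpd and 33 around Lgi3.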

How the data were processed

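Per the labels' protocols, lung RNA was extracted with a column kit and Cy3-labelled cRNA was hybridised to Agilent mouse arrays. The deposited processed signal is a background-subtracted intensity on a linear scale, made, per the file headers, with Agilent Feature Extraction 9.5.3.1, while the submitters' processing notes name version 9.1. The other deposited columns used, per the file headers, are marks for saturation, background and scan.

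The main values were log2 intensity minus each array's 75th percentile. A probe had to be well above background on 2 or more of the 6 arrays, and each gene was read by the probe with the highest mean. Names came from RefSeq accessions on GRCm38.p6, and no gene name column of the files was used. All 6 arrays entered 1 limma model (limma 3.58.1, R 4.3.3) with 3 residual and 1.77 prior degrees of freedom. Saturated probes gave no fold, and a group not above background gave a bound against the lowest detected signal of each array. Simulated data with known changes served as a test of the model. They held no slide, scan or background effects, so they cannot support the calls made here. Figures used Python 3.11.15 and matplotlib 3.10.9.

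The members, the gene lists and the rule for named genes (from each list, up to 4 genes called in each direction with the largest difference) were chosen with earlier results of these data known. A selected gene is not reported here. Alternatives were 2 normexp corrections on the median signal, since no mean signal was used, quantile and median scaling, other filters and probe rules, an intensity trend, only the groups compared, the deposited series values, slide and replicate blocks, and leaving out each array. Replicate numbers are shared only as numbers, and same-numbered deviations correlated at -0.05 between tg/tg and WT, 0.13 between tg/wt and WT and -0.05 between tg/tg and tg/wt across genes, so the samples were not treated as paired.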

Additional observations from a re-analysis of the deposited data

How the results depend on the processing

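Over all alternatives, 413 differences of members kept their direction and side of the threshold, 56 lost the call, 4 gained it and 22 changed sign. Sftpd, Napsa and Lgi3 kept direction and call in tg/tg against WT under all 19 alternatives, with differences of 0.74 to 1.21, 0.51 to 0.89 and -0.99 to -0.75. Not all alternatives are separate checks. The slide block repeats the main fit, so its values stay the same by construction, in the counts above too. Others keep the same difference in tg/tg against WT and can change only its p-value. Examples are the intensity trend, only the groups compared and leaving out a tg/wt array. With normexp on the median signal, where 1 WT array had local backgrounds up to 21737.5 units against a median of 58, called genes fell to 4121 in tg/tg against WT, 1 in tg/wt against WT and 3310 in tg/tg against tg/wt, and called members to 3, 0 and 2 in the same order of comparisons, and the median of all genes in tg/tg against WT was -0.175. Under that setting tg/tg against WT turned sign for Sftpb (0.17), Abca3 (0.13), Lamp3 (0.13) and Slc34a2 (0.10), and tg/wt against WT for Sftpa1 (0.35), Sftpd (0.20), Abca3 (0.16) and Etv5 (-0.27), none of them called. With those outlying backgrounds set to the array's median, called genes were 9145, 2700 and 9009 and called members 6, 4 and 8 in tg/tg against WT, tg/wt against WT and tg/tg against tg/wt. Under this second version Etv5 in tg/tg against WT was 0.015 and Sftpa1 in tg/wt against WT 0.014. Quantile normalization gave Sftpa1 0.12 in tg/wt against WT and -0.027 in tg/tg against tg/wt. Median scaling gave, in tg/tg against WT, Etv5 0.0055 and, in tg/tg against tg/wt, Abca3 0.0153. The mean of a gene's probes gave Lamp3 0.0501 and Slc34a2 0.0693 in tg/tg against WT. Leaving out 1 array changed the sign of Etv5 in tg/tg against WT (-0.0328 to 0.0216 over the 6 arrays left out), Sftpa1 in tg/wt against WT (-0.0879 to 0.0493) and Abca3 in tg/tg against tg/wt (-0.0481 to 0.0468), none called before or after. Apart from normexp, the cause of these changes was not tested.

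Without a filter, tg/wt against WT had 2408 called genes and 3 called members. Leaving out each array gave 8582 to 9504 called genes and 4 to 6 members in tg/tg against WT, 1397 to 3472 and 2 to 4 in tg/wt against WT, and 8715 to 9302 and 6 to 7 in tg/tg against tg/wt. With the replicate number as a block, a number that pairs no samples here, called genes were 9447, 2614 and 9363 and called members 5, 3 and 7 in tg/tg against WT, tg/wt against WT and tg/tg against tg/wt. A slide block adds nothing to the model, because slide 2 held only the tg/wt arrays. No separate fit was made, and the main values of tg/tg against WT were carried over. Of 1155 counts over the gene lists, 981 stayed within 1.5 times the main count and 174 did not. Every member probe was marked well above background on all arrays. The mark does not show how far a value depends on the background correction. The brightest Etv5 probe had processed signals of only 160 to 326 units. Its difference of tg/wt from WT went from 0.44 to -0.27 with normexp on the median signal, and stayed positive with outlying local backgrounds replaced. The far brighter probes of Sftpd and Sftpa1 also changed sign in that comparison with normexp on the median signal. The part of dimness was not tested. Saturation limits Sftpc.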

Other observations

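Some genes that lie next to a member in the RefSeq gene order were called too. Mat1a, a methionine adenosyltransferase gene next to Sftpa1, was 2.79-fold above WT in tg/tg (limma adjusted p = 7.8e-06). Dgkg, a diacylglycerol kinase gene next to Etv5, was 6.88-fold lower (limma adjusted p = 1.25e-06), while Tra2b on the other side of Etv5 was not called, at 0.06 (limma adjusted p = 0.186). Mbl1, which lies between Sftpa1 and Sftpd, was lower by -0.28 (limma adjusted p = 0.0265). Other genes called higher in tg/tg than in WT lay beside Sftpb (Atoh8 0.27 and Usp39 0.24), Abca3 (Rnps1 0.29), Lamp3 (B3gnt5 0.28) and Napsa (Nr1h2 0.23), each a log2 difference. These genes were looked up only because of their position, and 74.7% of all genes were called in that comparison.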
